A study of Mus musculus with 7 samples.

Results

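The genes described here are 10 controllers of the G1 phase of the cell cycle: the D-type cyclins Ccnd1, Ccnd2 and Ccnd3, the E-type cyclins Ccne1 and Ccne2, the kinases Cdk4 and Cdk6, and the inhibitors Cdkn1a, Cdkn1b and Cdkn1c. They were taken by name, out of 18193 genes with a probe set, and all of their 27 probe sets were followed on 7 arrays. Each array held total RNA of brown fat from male C57BL/6J mice aged 3 days. The mice were wild type (replicates 1, 3 and 4) or had a knockout (KO) of Gyk, the glycerol kinase gene (replicates 1 to 4). The labels do not state how the allele was made, whether tissue was pooled, or that each replicate was another animal. The p-values therefore measure only the spread between these arrays, which may be technical. Gyk itself is not analysed here. In whole tissue, fewer cells of a type and less RNA per cell cannot be told apart.

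Cells pass from G1 into S phase when cyclin D bound to CDK4 or CDK6, and then cyclin E bound to CDK2, phosphorylate the retinoblastoma protein and release E2F transcription factors. Cyclin D1 is made in response to growth signals and is short-lived. The CIP/KIP inhibitors p21 (Cdkn1a), p27 (Cdkn1b) and p57 (Cdkn1c) bind cyclin-kinase complexes and hold back division, and in fat precursors the exit from division accompanies differentiation.

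One array stood apart from its label. On the first principal component (35.3% of the variance), wild-type arrays scored -33.3 to -23, KO replicates 1, 3 and 4 scored 33.4 to 35.7, and the array labelled KO replicate 2, called KO array 2 from here on, scored -13.8. The labels call every sample male, yet Xist, the RNA that coats an inactive X chromosome, read 893 there on probe set 1427262_at, where no other array passed 13.1. Results are given with and without KO array 2, and the part of this array's difference in them was not tested beyond that. Array medians ran from 131.5 to 154 signal units, and the number of arrays limits the precision. The samples carried brown fat markers: Ucp1, the uncoupling protein of heat production, averaged 30980 in wild type and 31510 in KO. Of 11 measured brown adipocyte markers 0 were called by their brightest probe set (limma; 0 at an unadjusted p under 0.05, against 16.5% of all tested probe sets), and Fabp4 was called higher on another.

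The promoters of Cdkn1a and Cdkn1b are shown because these inhibitors rose in KO, and that of Cdk4 because it was lower on each of its probe sets. Each is the 250 bases before a RefSeq start (build GRCm38.p6, 5′ to 3′ on the plus strand). RefSeq windows were matched for 6 of the 10 genes, giving 8 windows in all. Ccnd1, Ccnd2, Ccne2 and Cdkn1c had no window, so nothing is said of their promoters. Capitals mark the letters CACGTG (the E-box, which Myc proteins and other factors bind) and matches to the p53 consensus with at most 1 mismatch over its 20 bases. The first Cdkn1a window is chr17:29090729-29090978, the Cdkn1b window chr6:134920151-134920400 and the Cdk4 window chr10:127063285-127063534.
Cdkn1a: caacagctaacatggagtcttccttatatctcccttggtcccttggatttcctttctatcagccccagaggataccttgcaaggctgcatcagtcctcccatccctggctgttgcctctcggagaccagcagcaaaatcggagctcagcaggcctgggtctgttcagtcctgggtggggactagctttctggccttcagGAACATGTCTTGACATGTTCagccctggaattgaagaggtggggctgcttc
Cdkn1b: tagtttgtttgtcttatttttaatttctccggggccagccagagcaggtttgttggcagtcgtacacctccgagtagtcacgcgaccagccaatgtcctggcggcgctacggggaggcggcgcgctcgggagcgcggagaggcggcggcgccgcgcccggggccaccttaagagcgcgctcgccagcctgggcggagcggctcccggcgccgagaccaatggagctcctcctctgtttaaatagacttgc
Cdk4: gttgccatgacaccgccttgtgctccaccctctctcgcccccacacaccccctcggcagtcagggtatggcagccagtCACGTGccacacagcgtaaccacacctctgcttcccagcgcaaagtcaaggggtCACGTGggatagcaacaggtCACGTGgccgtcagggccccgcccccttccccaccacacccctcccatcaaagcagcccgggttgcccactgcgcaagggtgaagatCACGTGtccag

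The first Cdkn1a window held 1 p53 consensus match, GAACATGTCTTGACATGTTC, from base 51 to base 32 before the start. The second Cdkn1a window, chr17:29093519-29093768, held 0 such matches. Which start the tissue used was not tested. Cdkn1a is a textbook target of p53. Such a match was in 0.0761% of 32851 promoter windows of the same length. The Cdk4 window held 4 E-boxes, which begin 172, 118, 98 and 11 bases before the start. E-boxes were in 6.02% of all windows and 4 or more of them in 0.0213%. The Cdk6 window held 1 E-box. The E2F letters TTTCCCGC and TTTGGCGC, in 0.895% and 0.417% of all windows, were in none of the 8, on either strand. Only these 2 E2F forms were searched. The letters TGTTCT, bound by the glucocorticoid receptor (16.1% of all windows), were in the Ccne1 and Cdk6 windows and in neither Cdkn1a window. The GC box GGGCGG, bound by Sp1 (32.7% of all windows), was in the Cdkn1b and Cdk4 windows, the second Cdkn1a window and both Ccnd3 windows. The Ccne1 window held 4 GC boxes, and 4.09% of all windows held 4 or more. Both strands were searched, and a match describes letters, not binding.

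Across the 10 genes the 3 probe sets of Ccnd1 fell in KO and 1 probe set each of Cdkn1a and Cdkn1b rose, while Ccnd3, both E cyclins, Cdk6 and Cdkn1c had no tested probe set past the threshold with or without KO array 2. Of the 27 probe sets, 24 were bright enough to be tested. Of these, 3 were called lower and 2 higher (limma, Benjamini-Hochberg adjusted p under 0.05 over 27022 probe sets), where 0.644% of all tested probe sets were called lower and 0.951% higher. The genotypes were fully separate for 6 member probe sets that were lower in KO and 3 that were higher, against 7.25% and 7.48% of all tested probe sets. The 6 were 3 of Ccnd1 and 3 of Cdk4, and the 3 were 2 of Cdkn1a and 1 of Cdkn1b. Probe sets of 1 gene share their RNA, so these counts are not of independent members. Without KO array 2, 8 were called lower and 3 higher, against 4.21% and 3.14% of all. The median log2 difference over all tested probe sets was 0.00. With no mean-variance trend in the limma fit, 0 member probe sets were called (13 of 24 at an unadjusted p under 0.05, against 15.2% of all tested probe sets in that fit), and the adjusted p of the 5 ran from 0.0787 for 1448698_at of Ccnd1 to 0.0996 for 1417419_at of Ccnd1. With no filter, 1448698_at of Ccnd1 (adjusted p = 0.0446) and 1434045_at of Cdkn1b (adjusted p = 0.0497) passed and the other 3 did not.

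**Figure D1:**
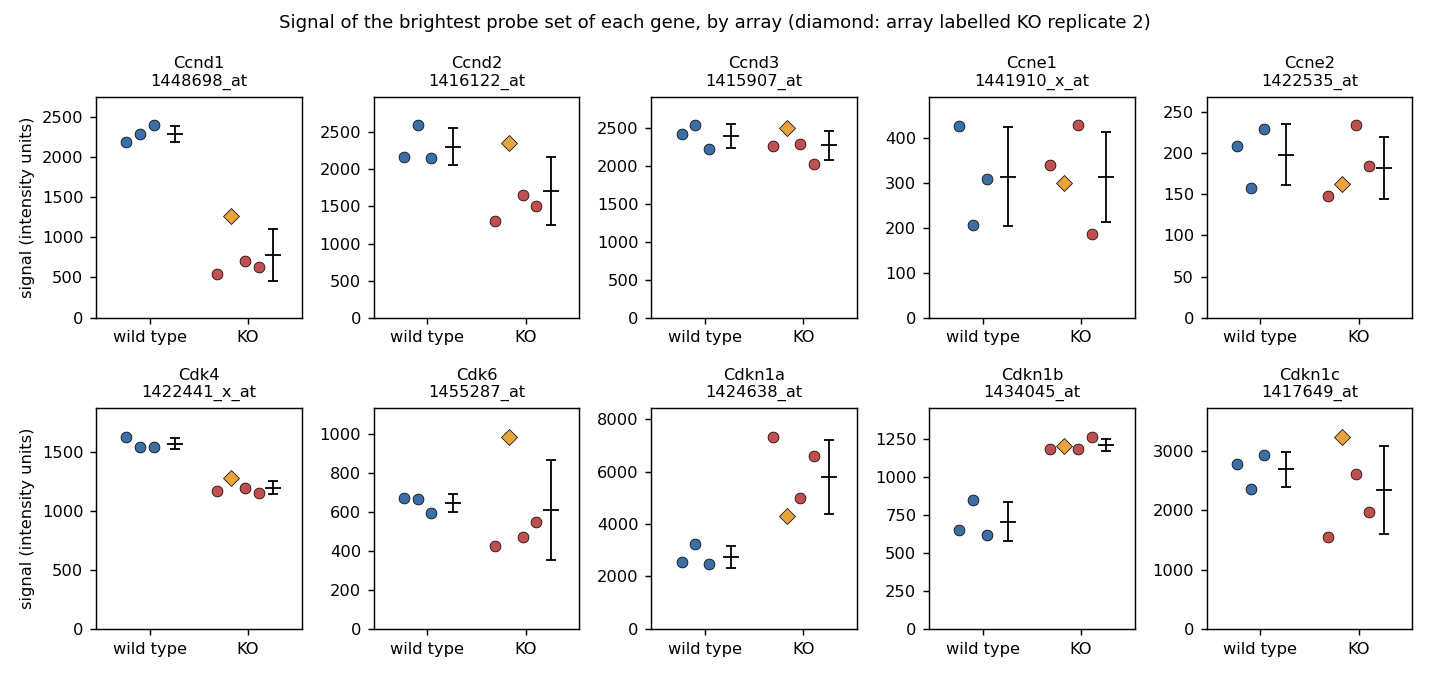
Signal in intensity units (linear axis from 0) of the brightest probe set of each of the 10 genes on 3 wild-type (blue) and 4 KO (red) arrays, with KO array 2 as an orange diamond and bars for mean and SD. For Ccnd1 the KO arrays lie between 542.3 and 1261.2 and the wild-type arrays between 2186.9 and 2393.9, and for Cdkn1b all 4 KO arrays lie between 1182.3 and 1261.2, above every wild-type array.

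Ccnd1, the cyclin that links growth signals to CDK4 and CDK6, was lower in KO on each of its probe sets. Its brightest, 1448698_at, read 2186.9, 2283.6 and 2393.9 in wild-type replicates 1, 3 and 4 and 542.3, 1261.2, 701.8 and 631.1 in KO replicates 1 to 4. All KO arrays lay below all wild-type arrays, and KO array 2 lay between the groups. The mean fell from 2288 ± 104 (SD, n = 3) to 784.1 ± 325 (n = 4), a log2 difference of -1.58 ± 0.23 (SE; limma, adjusted p = 0.0199).

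The 2 other Ccnd1 probe sets also separated the genotypes. Probe set 1417420_at read 1652.5, 1860.0 and 1909.2 in wild type and 224.2, 936.6, 350.3 and 276.9 in KO, a 4.45-fold fall (log2 difference -2.15 ± 0.36, limma adjusted p = 0.0256). Probe set 1417419_at read 509.8, 766.9 and 888.8 in wild type and 130.6, 404.2, 188.1 and 124.3 in KO, a 3.33-fold fall (-1.73 ± 0.33, adjusted p = 0.0358). On both, KO array 2 was the highest of the KO arrays and below all wild-type arrays. Without it, the falls were 3.55-fold, 5.91-fold and 4.17-fold on 1448698_at, 1417420_at and 1417419_at (adjusted p = 0.000165, 0.000159 and 0.00108).

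The Ccnd1 calls moved with the arrays used. When any 1 of the other 6 arrays was left out, the 3 probe sets kept log2 differences between -2.22 and -1.44, but their adjusted p ran from 0.0483 to 0.143. Leaving out wild-type replicate 1, 3 or 4 or KO replicate 3 or 4 ended all 3 calls, and leaving out KO replicate 1 kept that of 1448698_at alone. The sample numbers fall in 2 runs, the first with wild-type replicate 1 and KO replicates 1 and 2. With the runs as a covariate all 3 passed (adjusted p = 0.0205 for 1448698_at, 0.0262 for 1417420_at and 0.0383 for 1417419_at). Within the second run alone (2 KO and 2 wild-type arrays), 1448698_at differed by -1.77 (adjusted p = 0.00306). In the first run, wild-type replicate 1 read 2186.9 on it and KO replicates 1 and 2 read 542.3 and 1261.2.

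Ccnd2, a D-type cyclin with its own tissue pattern, was measured by 7 probe sets and 0 were called with all arrays. Its brightest, 1416122_at, read 2173.0, 2594.0 and 2153.7 in wild type and 1302.2, 2362.8, 1648.5 and 1506.0 in KO (log2 difference -0.46 ± 0.18, limma adjusted p = 0.23). KO replicates 1, 3 and 4 lay below the wild-type arrays and KO array 2 lay within their range. The log2 differences of the 7 probe sets ran from -0.72 on 1416123_at to -0.12 on 1416124_at, all below 0, with 1 exception when an array was left out (0.04 on 1416124_at without wild-type replicate 3). Without KO array 2, 4 of the 7 were called lower: 1434745_at by 1.56-fold (adjusted p = 0.0109), 1416122_at by 1.54-fold (adjusted p = 0.0171), 1430127_a_at by 1.48-fold (adjusted p = 0.0259) and 1455956_x_at by 1.60-fold (adjusted p = 0.0378).

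Ccnd3, the third D-type cyclin, gave nearly the same signal in both genotypes on its brightest probe set, 1415907_at: 2416.3, 2529.1 and 2216.7 in wild type and 2256.9, 2491.8, 2289.8 and 2026.7 in KO (log2 difference -0.08 ± 0.11, limma adjusted p = 0.799). Probe set 1444323_at read 91.2, 175.2 and 190.5 in wild type and 279.9, 195.8, 243.4 and 124.3 in KO, so its groups overlapped (0.40 ± 0.29, adjusted p = 0.542). A dim probe set went its own way. Probe set 1438805_at fell under the filter and read 36.6, 14.5 and 29.5 in wild type against 105.6, 86.7, 148.4 and 121.8 in KO. All 4 KO arrays were above all wild-type arrays there, including KO array 2. In the fit without the filter its log2 difference was 1.35 ± 0.26 (adjusted p = 0.0722), and 1.45 ± 0.28 without KO array 2 (adjusted p = 0.0283). The bright and the dim probe sets of Ccnd3 thus disagreed.

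The fall of Ccnd1 was set against those of its relatives through the log2 ratio of their brightest probe sets on each array, one of 7 pairs compared by an exact permutation test (two-sided; the smallest p that 4 against 3 arrays allow is 0.0286). Ccnd1 changed by -1.12 ± 0.13 (SE) more than Ccnd2 and by -1.51 ± 0.27 more than Ccnd3. In both pairs the KO and wild-type ratios did not overlap, which gave the smallest possible p of 0.0286, or 0.1 after adjustment over the 7 pairs. Ccnd2 and Ccnd3 differed by -0.38 ± 0.18 (exact permutation p = 0.0857, adjusted p = 0.12). The 95% interval of this difference ran from -0.84 to 0.07. These pairs were chosen after the values were seen, and none passed the adjustment.

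**Figure D2:**
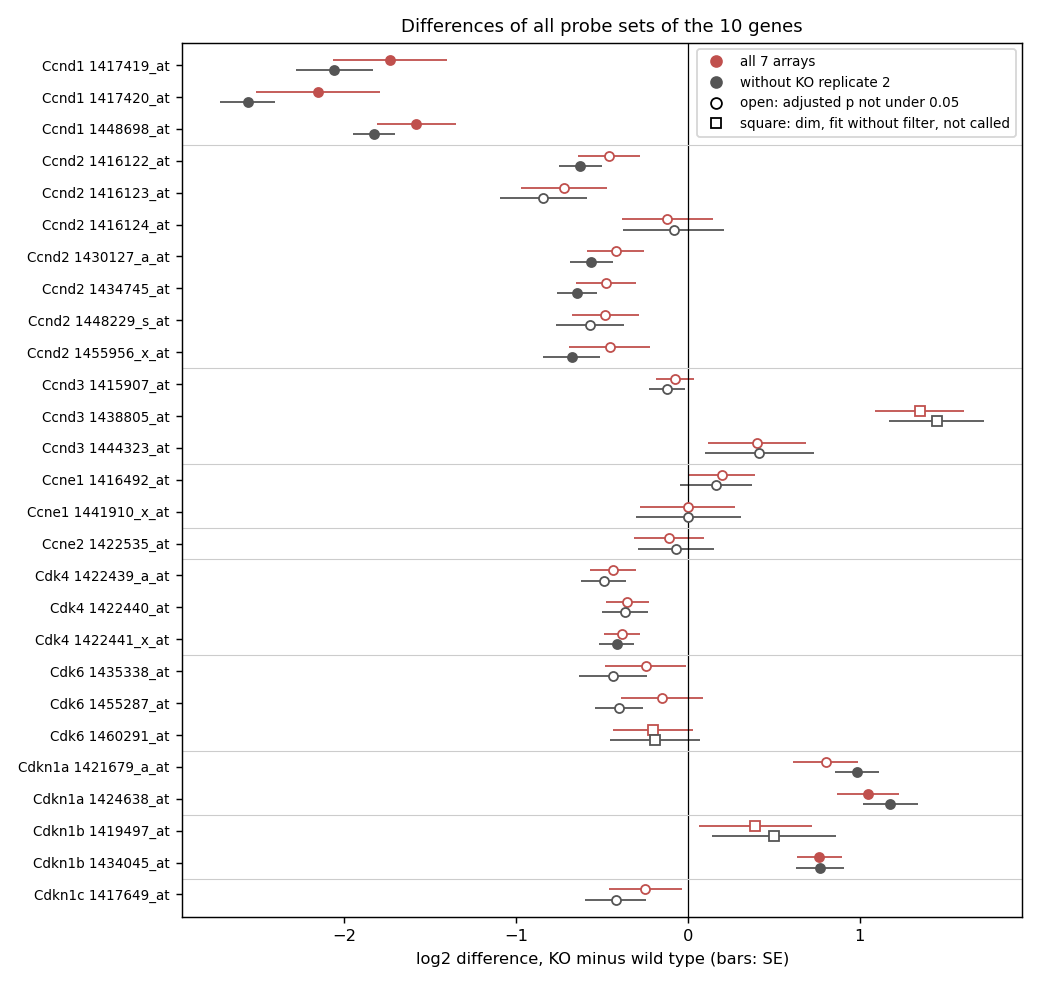
Log2 difference, KO minus wild type, with SE for each of the 27 probe sets, with all 7 arrays (red) and without KO replicate 2 (grey); filled points have an adjusted p under 0.05, and squares are probe sets under the filter, given from the fit without it and never counted as called. The 3 Ccnd1 probe sets lie at -2.15 to -1.58 with all arrays, Ccnd2 and Cdk4 lie left of 0, and the bright Cdkn1a and Cdkn1b probe sets lie between 0.76 and 1.05.

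The E-type cyclins, which activate CDK2 late in G1, showed no difference past the threshold. Ccne1 read 264.4, 224.7 and 159.0 in wild type and 202.6, 266.5, 262.7 and 262.8 in KO on 1416492_at (log2 difference 0.20 ± 0.19, limma adjusted p = 0.69). KO replicates 2, 3 and 4 were almost alike there and KO replicate 1 was lower, within the wild-type range. Its other probe set, 1441910_x_at, ran from 205.6 to 426.5 in wild type and from 186.5 to 428.3 in KO, with a log2 difference of 0.00 ± 0.28. Ccne2 read 209.0, 157.5 and 229.2 in wild type and 147.9, 162.3, 234.1 and 184.1 in KO (-0.11 ± 0.20, adjusted p = 0.849). The SEs of these dim probe sets, 0.19 to 0.28, were larger than those of Cdk4, 0.10 to 0.13.

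Cdk4, the partner kinase of the D cyclins, was lower in KO on all 3 probe sets, by a small amount that did not pass with all arrays. Probe set 1422441_x_at read 1625.4, 1541.6 and 1538.1 in wild type and 1163.1, 1277.6, 1189.4 and 1153.6 in KO. Every KO array, KO array 2 included, lay below every wild-type array. The log2 difference was -0.38 ± 0.10 (limma, adjusted p = 0.0952), and -0.41 ± 0.10 without KO array 2 (adjusted p = 0.0383).

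Probe set 1422439_a_at of Cdk4 read 1401.4, 1587.2 and 1443.6 against 894.8, 1211.6, 1207.0 and 1046.2 (log2 difference -0.44 ± 0.13, adjusted p = 0.13). Probe set 1422440_at read 935.6, 1239.5 and 1135.9 against 827.7, 878.4, 802.3 and 906.1 (-0.35 ± 0.13, adjusted p = 0.197). Neither had overlapping groups. Probe sets of 1 gene share their RNA, so the 3 are not independent of each other.

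Cdk6, the other kinase that D cyclins activate, had groups that overlapped. Probe set 1455287_at read 672.9, 666.9 and 591.6 in wild type and 425.0, 983.9, 472.5 and 547.3 in KO (log2 difference -0.15 ± 0.24, limma adjusted p = 0.814). KO array 2 gave the highest value of all 7 arrays, and the other KO arrays lay below wild type. Without it the difference was -0.40 ± 0.14 (adjusted p = 0.123). On 1435338_at that array was again the highest, at 677.8, with 490.7 to 562.4 in wild type and 313.7 to 546.0 in the other KO arrays. The third probe set, 1460291_at, fell under the filter, with 73.2 to 117.9 in wild type and 71.3 to 77.6 in KO. The change of Cdk4 differed from that of Cdk6 by -0.23 ± 0.27 (exact permutation p = 0.6, adjusted p = 0.6; 95% interval -0.93 to 0.47).

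Cdkn1a, the gene of p21, was higher in KO. Its brightest probe set, 1424638_at, read 2544.0, 3241.4 and 2460.2 in wild type and 7330.4, 4305.7, 4980.1 and 6590.5 in KO. The groups did not overlap, and KO array 2 was the lowest of the KO arrays. The mean rose from 2749 ± 429 (n = 3) to 5802 ± 1400 (n = 4), a 2.07-fold rise (log2 difference 1.05 ± 0.18, limma adjusted p = 0.0277).

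Its other probe set, 1421679_a_at, read 1022.2, 867.5 and 1083.2 in wild type and 2233.5, 1191.2, 1809.4 and 1922.5 in KO. There KO array 2 lay close above the wild-type arrays, and the difference did not pass (0.80 ± 0.19, adjusted p = 0.0646). Without that array both probe sets rose, by 2.27-fold on 1424638_at and 1.98-fold on 1421679_a_at (adjusted p = 0.00297 and 0.00262). The second run of accessions, with replicates 3 and 4 of each genotype, lacks KO array 2 as well. Within that part of the arrays both passed (log2 differences 1.01 and 0.92, limma adjusted p = 0.0349 and 0.0265).

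Cdkn1b, the gene of p27, rose in KO with the narrowest KO spread of the changed genes. Probe set 1434045_at read 647.1, 849.3 and 615.7 in wild type and 1182.3, 1198.2, 1183.7 and 1261.2 in KO. Here KO array 2 was level with the other KO arrays. The mean rose from 704 ± 127 to 1206 ± 37.3, a 1.70-fold rise (log2 difference 0.76 ± 0.13, limma adjusted p = 0.0277), and the fold was 1.70 without that array as well (adjusted p = 0.0109). Within the second run of accessions the difference was 0.73 and did not pass (adjusted p = 0.0755). Its dim probe set, 1419497_at, fell under the filter with 28.5 to 76.6 in wild type and 39.1 to 104.4 in KO.

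The Cdkn1a and Cdkn1b calls were lost whichever of wild-type replicates 1, 3 and 4 or KO replicates 1, 3 and 4 was left out. The log2 difference of 1424638_at of Cdkn1a then ran from 0.93 to 1.17 with adjusted p from 0.0628 to 0.113, and that of 1434045_at of Cdkn1b from 0.68 to 0.90 with adjusted p from 0.0624 to 0.115.

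Cdkn1c, the gene of p57, an imprinted inhibitor, had 1 probe set. It read 2777.7, 2363.8 and 2931.8 in wild type and 1543.4, 3240.2, 2619.6 and 1963.6 in KO, so the groups overlapped and KO array 2 was the highest of all 7. The log2 difference was -0.25 ± 0.21 (limma, adjusted p = 0.634), and -0.42 ± 0.18 without that array (adjusted p = 0.2). The Cdkn1c estimate was below 0 where those of Cdkn1a and Cdkn1b were above it, but it did not pass. Without KO replicate 1 it was -0.07, so an opposite response is not shown. Cdkn1b changed by 1.01 ± 0.34 more than Cdkn1c, with ratios that did not overlap (exact permutation p = 0.0571, adjusted p = 0.12). The difference between Cdkn1a and Cdkn1c was 1.30 ± 0.51 (p = 0.0857 by the exact permutation test, adjusted p = 0.12) and that between Cdkn1a and Cdkn1b 0.28 ± 0.20 (exact permutation p = 0.286, adjusted p = 0.334; 95% interval -0.24 to 0.81).

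**Figure D3:**
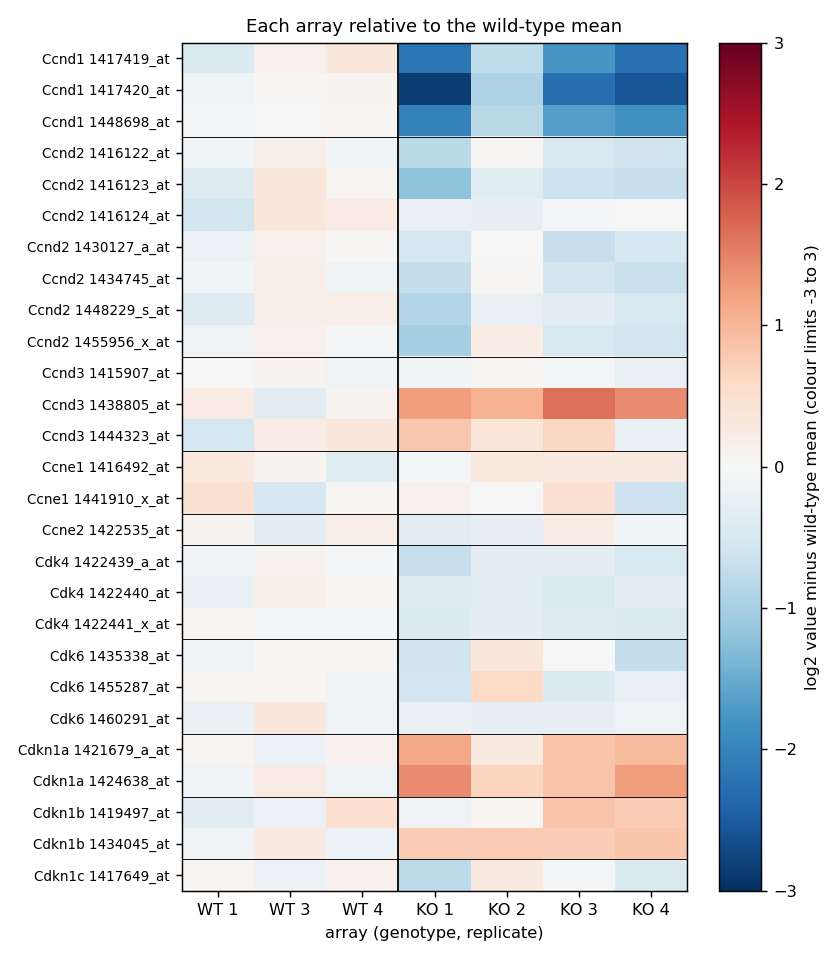
Heat map of each of the 27 probe sets (rows) on each array (columns), as log2 value minus the wild-type mean, red above and blue below. KO replicates 1, 3 and 4 are darkest for Ccnd1, KO array 2 is paler there and red for 1435338_at and 1455287_at of Cdk6, and the 1434045_at row of Cdkn1b is evenly red over all 4 KO arrays.

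KO array 2 did not take 1 place for all of these genes. Its signal lay within the wild-type range for 10 of the 27 probe sets and within the range of the other KO arrays for 6. It was nearer the wild-type mean than the mean of the other KO arrays for 13. It lay between the groups for Ccnd1, with wild type for 1416122_at of Ccnd2, with KO for 1434045_at of Cdkn1b, and above both for 1455287_at of Cdk6.

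Genes around these 10 in the same pathway were followed through lists of RB and E2F genes, INK4 inhibitors, cyclin A with CDK2 and its activators, ubiquitin ligase parts that degrade G1 regulators, and S phase genes. Among RB and E2F genes 0 of 12 tested were called by their brightest probe set, with a median log2 difference of -0.09 against 0.00 over all tested probe sets. Of the 12, 2 had an unadjusted limma p under 0.05, a share near the 16.5% of all tested probe sets. E2f6, a repressor of the E2F family, read 787.1 to 881.8 in wild type and 468.7 to 643.6 in KO (-0.52 ± 0.14, limma adjusted p = 0.0927). Rbl1, the p107 relative of the retinoblastoma protein, read 284.0 to 379.0 in wild type and 127.8 to 245.4 in KO (-0.74 ± 0.22, adjusted p = 0.118), and it was called without KO array 2 (adjusted p = 0.0287).

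Of the INK4 inhibitors, which bind CDK4 and CDK6 alone, 0 of 3 tested were called and 1 had an unadjusted limma p under 0.05, against 16.5% of all tested probe sets (median -0.11). Cdkn2d read 769.0 to 827.7 in wild type and 913.6 to 1192.5 in KO (0.29 ± 0.13, adjusted p = 0.281), and Cdkn2c differed by -0.11 ± 0.11 (adjusted p = 0.704). In the cyclin A and CDK2 list 0 of 6 were called and 2 had an unadjusted limma p under 0.05, against the same 16.5% (median -0.03). Ccna2, the S phase cyclin, read 422.9, 464.1 and 549.5 in wild type and 262.0, 383.0, 218.2 and 302.4 in KO (-0.68 ± 0.19, limma adjusted p = 0.103). Its adjusted p was 0.0202 without KO array 2. Cdk2 read 818.0 to 1010.0 in wild type and 1138.4 to 1495.7 in KO (0.40 ± 0.14, adjusted p = 0.166).

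In the list of degradation genes 1 of 11 was called, and it was higher, as were 0.951% of all tested probe sets. An unadjusted limma p under 0.05 was found for 2 of the 11, a share near the 16.5% of all tested probe sets. The called gene was Fbxo31, an F-box protein that can direct cyclin D1 to degradation. Its probe set 1428926_at read 489.0, 433.6 and 448.2 in wild type and 2756.7, 975, 1712.1 and 1396.7 in KO. Each KO array was above each wild-type array, and KO array 2 was the lowest of the 4. The log2 difference was 1.74 ± 0.27 (3.34-fold, limma adjusted p = 0.0217), while the other Fbxo31 probe set, 1417969_at, differed by 0.77 ± 0.25 and did not pass (adjusted p = 0.158). The list median was 0.09. Cks1b, a cofactor of the ligase that degrades p27, read 846.8 to 1023.3 in wild type and 553.6 to 660.2 in KO on 1448441_at (-0.55 ± 0.13, adjusted p = 0.0615). On its brightest probe set, 1416698_a_at, Cks1b read 2893.0, 2322.3 and 2956.2 in wild type and 1030.5, 2376.1, 2037.0 and 1851.4 in KO, so the groups overlapped there (-0.63 ± 0.24, adjusted p = 0.214). In the same list Skp2, Skp1 and Cul1 differed by 0.15, 0.09 and 0.17 on their brightest tested probe sets. None of them passed (limma adjusted p = 0.824, 0.785 and 0.508). Probe set 1423149_at of Skp1 differed by -0.12, and the dimmer Skp2 probe sets fell under the filter, with lower means in KO.

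The S phase list holds mostly genes of DNA replication, many of them E2F targets, and also the proliferation marker Mki67. Of 13 tested, 3 were called lower by their brightest probe set and 0 higher (median log2 difference -1.002). Of all tested probe sets, 0.644% were called lower and 0.951% higher. An unadjusted limma p under 0.05 was found for 11 of the 13, against 16.5% of all tested probe sets. The difference was negative for 12, and the exception was Mcm7 (0.13 ± 0.12, adjusted p = 0.678). Mcm2, Mcm5 and Rrm2 fell by 2.30-fold, 3.14-fold and 2.99-fold, and Mcm3 fell by 4.11-fold on a dimmer probe set (limma adjusted p = 0.0371, 0.0462, 0.0219 and 0.00926). Other tested probe sets were lower but did not pass: 1448777_at of Mcm2, 1415945_at of Mcm5, and 1416120_at and 1448226_at of Rrm2 (adjusted p = 0.0672, 0.0604, 0.107 and 0.0713). The brightest Mcm3 probe set, 1420028_s_at, and 1420029_at of Mcm3 did not pass either (adjusted p = 0.0982 and 0.348). Probe sets under the filter went both ways in the fit without it. There 1459658_at of Mcm5 was higher (log2 difference 0.42), and 1426652_at and 1426653_at of Mcm3 were lower (-1.84 and -0.54). None of these passed (limma adjusted p = 0.563, 0.0606 and 0.542). Without KO array 2, 9 of the 13 were called lower (median -1.28), against 4.21% of all tested probe sets. The members of these lists were chosen with results of these data known.

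**Figure D4:**
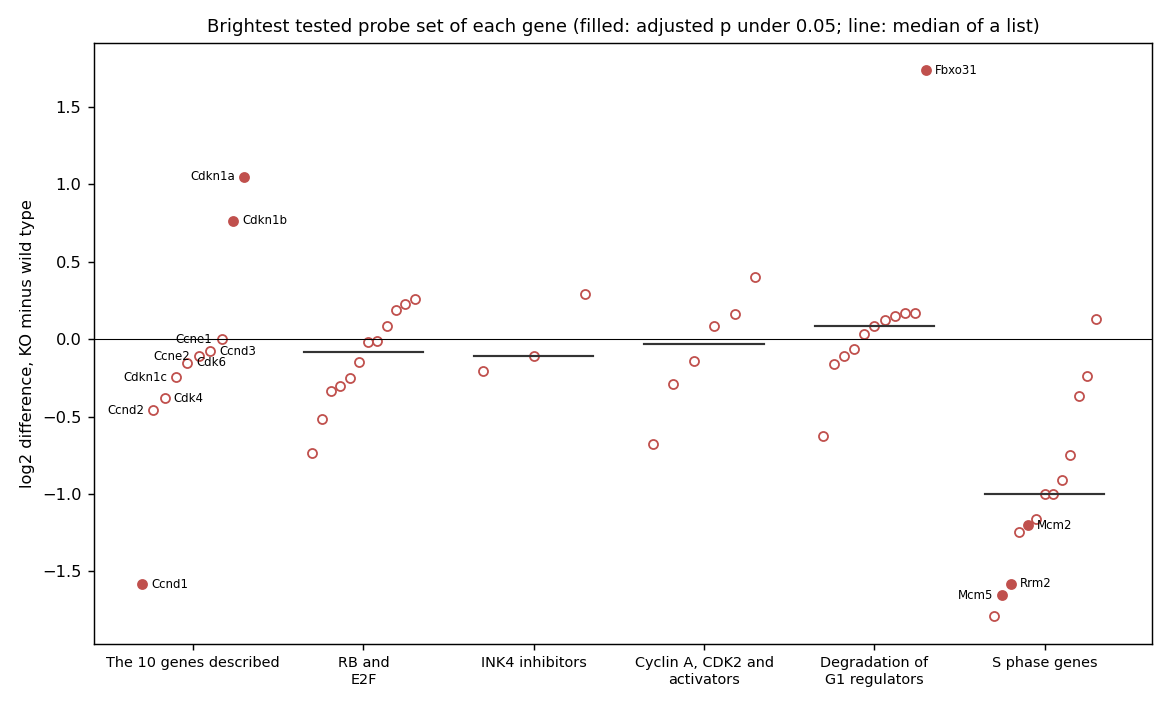
Log2 difference, KO minus wild type, for the brightest tested probe set of each of the 10 genes and of the genes in 5 lists of the same pathway; filled points have an adjusted p under 0.05 and lines are list medians. Ccnd1 lies at -1.58 and Fbxo31 at 1.74, while most S phase genes lie below 0 and the RB and E2F genes lie on both sides of it.

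Markers of other cell types were read beside these genes, by the brightest probe set of each (limma calls, with counts at an unadjusted p under 0.05, which 16.5% of all tested probe sets passed). Without KO array 2, 4.21% of all tested probe sets were called lower and 3.14% higher. The summed signal of 6 endothelial markers was 8408 to 10600 in wild type and 7478 to 8283 in KO, which did not overlap. Of single tested probe sets, 7.25% were separate and lower in KO. Of the 6 markers 0 were called and 3 were at the unadjusted threshold. Their median log2 difference was -0.32, with 5 below 0 and Tek above it (0.13 ± 0.13, limma adjusted p = 0.69). The summed signal of 8 preadipocyte and fibroblast markers was 58620 to 61920 in wild type and 38090 to 59870 in KO, with 0 of 8 called, 2 at the unadjusted threshold, and Lum and Fap called lower without KO array 2. Neutrophil markers summed to 4504 to 6864 in wild type and 5983 to 10660 in KO, with 0 of 7 tested called, 4 at the unadjusted threshold, a median log2 difference of 0.56, and Ngp and Lcn2 called higher without KO array 2. Macrophage markers (7460 to 7915 against 5180 to 9213), erythroid markers (3410 to 5807 against 3508 to 5207) and skeletal muscle markers (28720 to 42480 against 23240 to 41850) overlapped between genotypes, with 0 called and 0, 0 and 1 at the unadjusted threshold. The lowest value of the whole series was 0.1, so a signal above 0 does not show that a marker was expressed. The part of these markers in the levels of the cell cycle genes was not tested.

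The genes whose profile over the 7 arrays lay nearest to that of a member were found by the mean absolute difference between centred log2 values, a description with no test. Nearest to Ccnd1 (1448698_at) were Gask1b (0.09), Rcbtb2 (0.13), the splicing factor gene Srsf3 (0.13), Cpn2 (0.13) and Chid1 (0.14). Their log2 differences ran from -1.65 for Srsf3 to -1.31 for Chid1, and only Gask1b (adjusted p = 0.0481) and Srsf3 (adjusted p = 0.0228) passed. Nearest to Cdkn1a (1424638_at) were Peli2 (0.06), D230025D16Rik (0.09), Gpr160 (0.09), Gcnt2 (0.10) and Zfp36 (0.10), a decay factor of AU-rich messages. Of these, D230025D16Rik, Gpr160 and Gcnt2 passed (limma adjusted p = 0.0217, 0.0403 and 0.0461). Nearest to Cdkn1c were Impa1 (0.06), Sigirr (0.08), Ccl7 (0.08), Il17d (0.08) and Unc93b1 (0.09), none of which passed. KO array 2 was the highest KO array for each of these 5 genes, at 1562.3 for Impa1, where the rest of the KO group spanned 861.1 to 1263.3. All these neighbours were picked for likeness to a member over all 7 arrays. Their place on KO array 2 and their genotype differences are therefore largely set by that choice. Neither these nor the calls among the neighbours add separate evidence about the members.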

How the data were processed

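The authors deposited 1 linear signal intensity for each probe set on each array. The submitters' processing notes name GCOS 1.2. The background correction and scaling are not given in the sources used here. After trimming 2% at each end, the mean was 500.003 on all 7 arrays, so the deposited scaling was kept. Detection calls were not used here. Of 45101 probe sets, 64 controls were left out. The probe table gave 1 symbol for 34945, several for 932 and none for 9160, and symbols were updated through RefSeq gene identifiers (GRCm38.p6). Names ending in _x_at, _s_at or _a_at mark probe sets that can share probes with other transcripts or variants.

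The log2 of signal + 30.6 (the 20th percentile of the values) was used, which understates changes of dim probe sets. Probe sets whose mean over all 7 arrays lay under the 40th percentile were left out, which kept 27022. KO (n = 4) and wild type (n = 3) were compared with limma 3.58.1 under R 4.3.3, in a two-sided moderated test with trend and without a block (lmFit and eBayes), with Benjamini-Hochberg adjustment over all 27022. The fit was tested on simulated data.

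Every probe set of the 10 genes was reported. Of the other G1 lists, members called on any probe set and otherwise the 2 with the smallest p were named. Cks1b, Skp2, Skp1, Cul1 and Mcm7 were added after values were seen. So were the 7 ratio tests, the motifs and the fit of dim probe sets with no filter and without KO replicate 2. The profile neighbours of Ccnd1, Cdkn1a and Cdkn1c were the 5 nearest genes. The members and lists were chosen with earlier results of these data known. The accession runs are known only as 2 runs of sample numbers, not as batches.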

Additional observations from a re-analysis of the deposited data

Results flagged for a closer look

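Among the 4 KO arrays, the Ccne1 probe set 1416492_at read 202.6 on KO replicate 1, far below the other 3 (262.7 to 266.5) relative to their range. This was 1 of 27 probe sets examined, and chance sets about 1 in 20 such groups apart. The value lies within the wild-type range of 159.0 to 264.4.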

How the results depend on the processing

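The 5 called member probe sets kept their direction under all alternatives. Their KO and wild-type signals did not overlap, so leaving out an array or changing the offset could not have reversed them. The filter alternatives and the fit with no mean-variance trend leave each log2 difference as it is, so direction could not change there. With those values counted in, 416 of 428 values over the 24 tested member probe sets kept their direction and 12 did not. Of these 12, 0 were called. Those were Ccne1 1441910_x_at (0.0246 with quantile normalization, 0.0098 with array-median scaling, 0.0228 with array weights, 0.0023 with the replicate block, 0.16 in the second accession run alone, -0.25 to 0.23 with 1 array left out), Ccnd3 1444323_at (-0.0502) and Ccne2 1422535_at (0.11), both in the second run alone, and Ccnd2 1416124_at (-0.398 to 0.0368 with 1 array left out). The count of called members was 2 with no filter, 0 with no mean-variance trend (limma; 13 of 24 at an unadjusted p under 0.05, against 15.2% of all), 13 with the replicate block and 0 to 11 with 1 array left out (8 to 17 of 24 at that unadjusted threshold). The count over all probe sets, 431, became 235 with array-median scaling, 100 with no filter, 6 with no mean-variance trend, 1312 with array weights, 2183 with the replicate block, 726 in the second run alone and 7 to 1986 with 1 array left out. Same-numbered KO and wild-type arrays had deviations from their group means that correlated at 0.057, 0.149 and 0.105 for numbers 1, 3 and 4, so the numbers were not taken as pairs. The replicate block leaves KO replicate 2, the only array with that number, out of the estimate, as leaving that array out does. Fits without an array have fewer samples. Why the other counts moved was not tested. No detection calls were used, so dim probe sets (Ccne1, Ccne2, 1438805_at of Ccnd3, 1460291_at of Cdk6, 1419497_at of Cdkn1b) limit what can be said.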
